A study of Mus musculus with 3 samples.

Results

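The miR-23, miR-24 and miR-27 microRNAs were followed through 3 ways of extracting RNA from mouse serum. The members are mmu-miR-23a-3p, mmu-miR-23b-3p, mmu-miR-24-3p, mmu-miR-27a-3p and mmu-miR-27b-3p, written without the species prefix from here on. They were chosen by name, and all 5 were found among the 1881 mouse miRNAs on the array. Serum came from male C57BL/6NJcl mice aged 8 weeks, with no treatment named, and 200 µL of it went into each extraction. In the exoRNeasy arm, meant to measure the total RNA of serum, 700 µL of the phenol reagent QIAzol was added first and the aqueous layer was put through the exoRNeasy midi kit. The miRNeasy advanced arm used the miRNeasy serum/plasma advanced column kit, and the mirVana PARIS arm used organic extraction with the mirVana PARIS kit. Labelling with Cy3 used 1.8 ng of RNA per extract, and each kit was read on 1 Agilent mouse miRNA array. The labels give neither the number of mice nor whether the extracts shared a serum pool. There was thus no replicate, no p-value was computed, and every error below is the spread between replicate spots of a probe on 1 array, which holds neither the extraction nor the mice.

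In mammals these miRNAs are cut from the transcripts of a pair of paralogous gene clusters, each with a miR-23, a miR-27 and a miR-24 hairpin. MiR-23a represses the mitochondrial glutaminase, miR-24 represses cell cycle genes and the endothelial transcription factor Gata2, and miR-27 represses regulators of fat cell formation as well as Sprouty2 and Sema6a, which restrain vessel growth. In serum work miR-23a-3p is used as the steady partner of miR-451a, a red cell miRNA, to judge whether a sample was haemolysed.

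The mature sequences are shown because the paralogs are told apart by their 3′ ends and the targets are set by their seeds; the seed, bases 2 to 8 from the 5′ end, is in capitals. They come from RefSeq on GRCm38.p6, where 4 of the 5 members matched an entry.
miR-23a-3p: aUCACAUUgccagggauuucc
miR-24-3p: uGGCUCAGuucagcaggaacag
miR-27a-3p: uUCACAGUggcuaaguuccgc
miR-27b-3p: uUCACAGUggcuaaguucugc
Mature miR-23a-3p lies at chr8:84208563-84208583 and miR-27a-3p at chr8:84208727-84208747. The miR-24-3p sequence is encoded at chr8:84208875-84208896 and again, letter for letter, at chr13:63301251-63301272, so its signal cannot be assigned to a cluster. MiR-27b-3p lies at chr13:63300760-63300780, and all these positions are on the plus strand. The hairpins Mir23a, Mir27a and Mir24-2 span 404 bp with no annotated gene around them, and Mir23b, Mir27b and Mir24-1 span 792 bp inside the protein-coding gene Aopep, an aminopeptidase. MiR-27a-3p and miR-27b-3p share 1 seed and differ at 1 base, C19U, counted from the 5′ end with the miR-27a-3p base first. How far each probe binds the other paralog was not tested. MiR-23b-3p is the member without an entry, so its seed was not compared with that of its paralog miR-23a-3p. Of the 1679 mature miRNAs in the table, which lacks miR-23b-3p, no other had the miR-23a-3p seed, and none but the miR-27 paralogs had theirs. MiR-24-3p shared its seed with miR-5124b, miR-6369, miR-6410 and miR-6413, and 0 of these 4 were detected on any array.

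The arrays of the series are summarised first. Detection required that the scanner software mark more than 50% of a probe's spots, outliers left out, as well above background. The exoRNeasy, miRNeasy advanced and mirVana PARIS arrays then had 83, 71 and 134 detected miRNAs, with 67 on all 3 arrays, and 0 saturated spots. The lowest signals among detected probes were 21.6, 12.2 and 8.81 in the same order, so a dim miRNA had to be brighter on the exoRNeasy array to be detected there. Markers fit for serum were present: 4 of 4 red cell miRNAs and 2 of 2 liver miRNAs were detected on every array, as were 3, 3 and 4 of 4 platelet, endothelial and white cell miRNAs, in the same order. Of 3 muscle miRNAs 2 were detected on every array, and miR-206-3p on none.

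The 3 members miR-23a-3p, miR-24-3p and miR-27a-3p were detected on all 3 arrays, whereas the b paralogs miR-23b-3p and miR-27b-3p were detected with mirVana PARIS alone. Of the 134 miRNAs detected with mirVana PARIS, 80 were also detected with exoRNeasy and 71 with miRNeasy advanced. Missing on those arrays was thus common and not particular to the b paralogs. Each member had 2 probes, and the brighter probe is described unless another is named. Signals are background-subtracted intensities in arbitrary units. They can be compared between arrays for 1 probe, but probes bind their targets with different strength, so a brighter probe does not mean a more abundant miRNA.

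**Figure D1:**
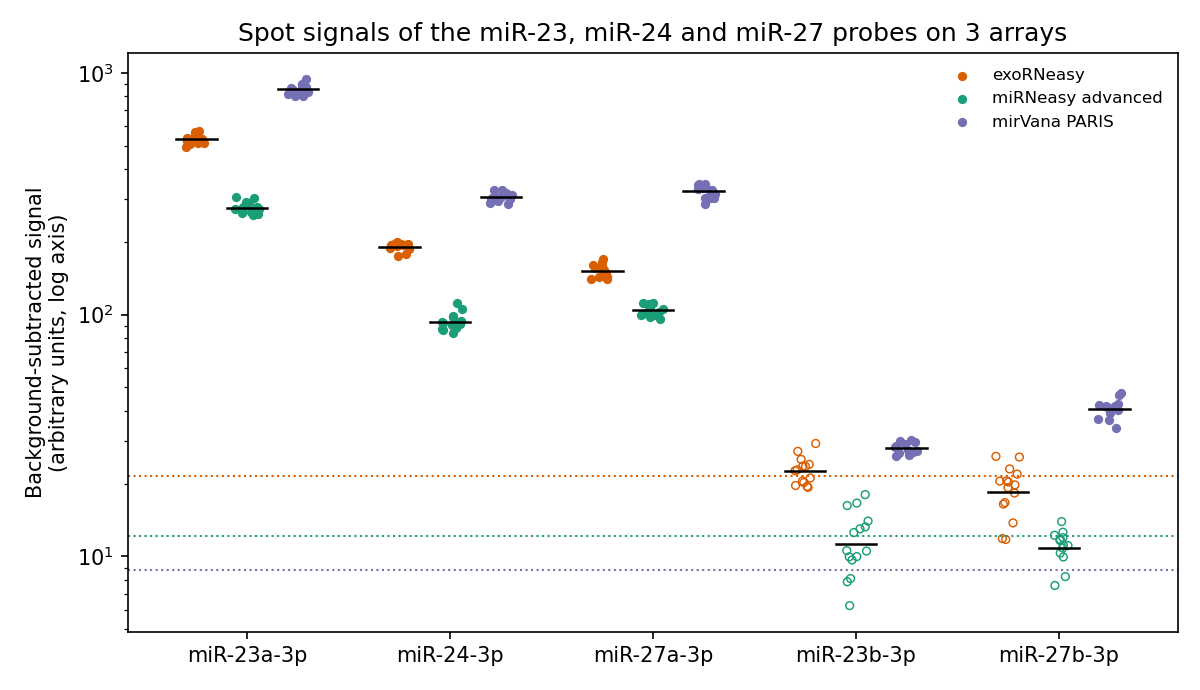
Background-subtracted signal of each replicate spot (points, log axis, arbitrary units) for the brighter probe of each member on the exoRNeasy, miRNeasy advanced and mirVana PARIS arrays; black bars are means of log2 signals, open points mark probes not detected on that array, and dotted lines mark the lowest signal of a detected probe on each array. For miR-23a-3p, miR-24-3p and miR-27a-3p the spots of the 3 arrays do not overlap, while the miR-23b-3p and miR-27b-3p spots of the exoRNeasy and miRNeasy advanced arrays lie around the dotted lines.

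MiR-23a-3p, the glutaminase repressor, had a mean signal of 531 ± 24.2 (SD, n = 14 spots) with exoRNeasy, 277 ± 14.9 (SD, n = 15 spots) with miRNeasy advanced and 854 ± 38.1 (SD, n = 15 spots) with mirVana PARIS. The spots of the arrays did not overlap, with the mirVana PARIS array brightest and the miRNeasy advanced array dimmest. Before any scaling the miR-23a-3p signal was 3.08-fold higher on the mirVana PARIS than on the miRNeasy advanced array, 1.61-fold higher on the mirVana PARIS than on the exoRNeasy array and 1.92-fold higher on the exoRNeasy than on the miRNeasy advanced array, as ratios of means of log2 signals.

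MiR-24-3p, the product that both clusters encode, gave 191 ± 7.04 (SD, n = 14 spots) with exoRNeasy, 93.8 ± 7.42 (SD, n = 15 spots) with miRNeasy advanced and 306 ± 12.6 (SD, n = 15 spots) with mirVana PARIS. The order of the kits was that of miR-23a-3p, again with no overlap between spots. The unscaled folds were 3.27 for mirVana PARIS over miRNeasy advanced, 1.60 for mirVana PARIS over exoRNeasy and 2.04 for exoRNeasy over miRNeasy advanced.

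MiR-27a-3p, the repressor of fat cell regulators, had signals of 151 ± 9.48 (SD, n = 14 spots), 104 ± 5.34 (SD, n = 14 spots) and 324 ± 18.1 (SD, n = 15 spots) on the exoRNeasy, miRNeasy advanced and mirVana PARIS arrays. Its order was the same, but the exoRNeasy signal sat nearer to the miRNeasy advanced signal than for the other products. The exoRNeasy array was 1.45-fold brighter than the miRNeasy advanced array for miR-27a-3p, and the mirVana PARIS array was 2.14-fold brighter than the exoRNeasy array and 3.11-fold brighter than the miRNeasy advanced array. The probe of miR-27a-3p was brighter than that of miR-24-3p on the miRNeasy advanced and mirVana PARIS arrays and dimmer on the exoRNeasy array.

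All miRNAs together also differed between arrays before scaling, with median folds of 3.08 for mirVana PARIS over miRNeasy advanced, 1.56 for mirVana PARIS over exoRNeasy and 1.94 for exoRNeasy over miRNeasy advanced. Ratios from here on are log2 ratios after each array was set to its own 75th percentile of log2 signal, taken over 106 probes detected with every kit. After scaling 0 of the 3 detected members were 2-fold apart in any comparison, and the b paralogs could not enter because they were not detected on both arrays of any pair. Of all miRNAs detected on both arrays, 4.48% (3 of 67) were at least 2-fold apart between exoRNeasy and miRNeasy advanced, 27.5% (22 of 80) between exoRNeasy and mirVana PARIS and 16.9% (12 of 71) between miRNeasy advanced and mirVana PARIS. Those higher on the first-named array were 2.99%, 25.0% and 14.1% of all, and those lower were 1.49%, 2.50% and 2.82%. The split depends on the scaling. Higher and lower counts were 2 and 1, 20 and 2, and 10 and 2 here, but 29 and 0, 5 and 22, and 0 and 57 without scaling, and 39 and 0, 7 and 14, and 0 and 53 with the labelling spike-in. With the 75th percentile over all probes they were 12 and 0, 4 and 45, and 0 and 56. The median of shared probes gave 1 and 5, 16 and 3, and 11 and 2, and quantile normalisation 1 and 4, 12 and 2, and 7 and 2. The count of 0 members rests on the scaling too: without it 1, 1 and 3 members were at least 2-fold apart in these comparisons.

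In exoRNeasy against miRNeasy advanced, the comparison of the total RNA arm with the column kit of the same maker, miR-24-3p had a log2 ratio of 0.20 ± 0.03 (spot SE), miR-23a-3p of 0.10 ± 0.03 and miR-27a-3p of −0.30 ± 0.03. The median of the 3 was 0.10, beside 0.12 over all 67 miRNAs, whose quartiles were −0.17 and 0.39. MiR-27a-3p lay below the lower quartile, and 11 of the 67 miRNAs had a lower ratio. The signs of these ratios depend on the scaling. With the median of shared probes as the scale they were −0.09 for miR-24-3p, −0.18 for miR-23a-3p and −0.58 for miR-27a-3p, and when all probes entered the 75th percentile the miR-27a-3p ratio was 0.05. A constant added to an array moves every miRNA alike, so such a scaling leaves the distances to the median of all miRNAs as they are.

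The exoRNeasy and mirVana PARIS arms both had an organic step. In exoRNeasy against mirVana PARIS the ratios were 0.29 ± 0.02 for miR-24-3p, 0.28 ± 0.02 for miR-23a-3p and −0.13 ± 0.03 for miR-27a-3p. Their median of 0.28 stood beside 0.33 over all 80 miRNAs, with quartiles of −0.08 and 0.99. MiR-27a-3p was again below the lower one, with 17 of the 80 lower. Without scaling all 3 ratios were below 0, quantile normalisation gave −0.11 for miR-23a-3p, and total gene signals gave 0.02 for miR-27a-3p. This comparison shares the exoRNeasy array with the one above, so the lower miR-27a-3p ratio in both is a single observation of that array.

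Between miRNeasy advanced and mirVana PARIS, the kits used on serum directly, the members lay close together, at 0.18 ± 0.03 for miR-23a-3p, 0.17 ± 0.03 for miR-27a-3p and 0.10 ± 0.03 for miR-24-3p. Their median was 0.17 and that of all 71 miRNAs 0.18, with quartiles of −0.26 and 0.67. MiR-23a-3p was itself the median miRNA, with 35 miRNAs above and 35 below it. All 3 ratios were below 0 without scaling, and that of miR-23a-3p was −0.11 with quantile normalisation, −0.18 with normexp and −0.13 without background correction.

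**Figure D2:**
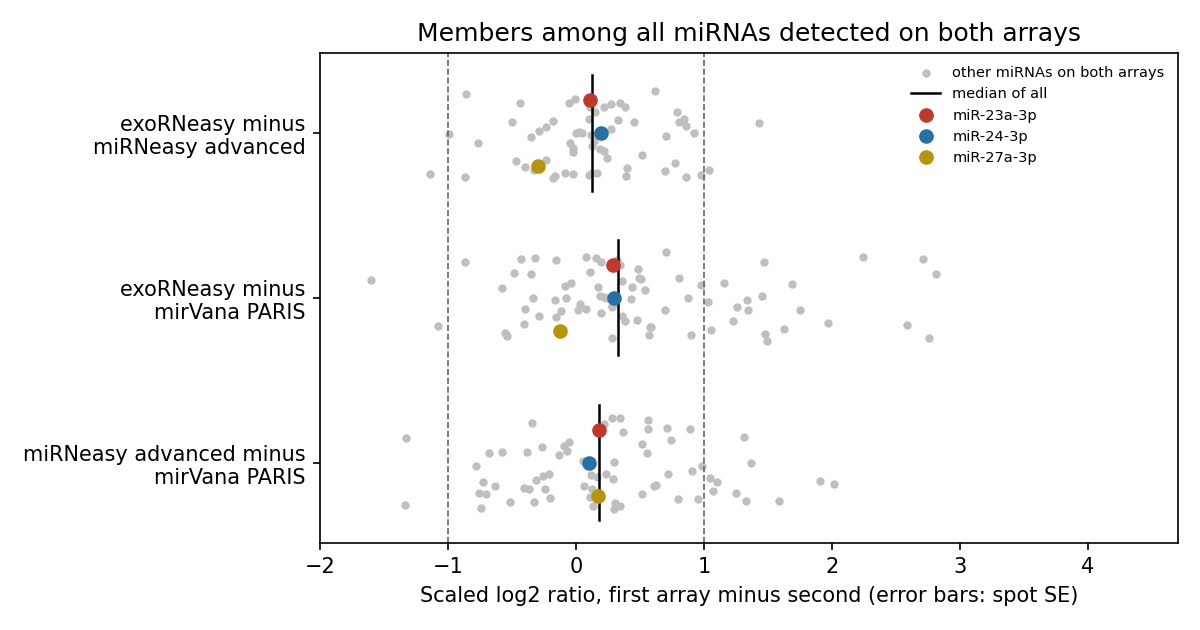
Scaled log2 ratio of every miRNA detected on both arrays of a pair (grey points), with miR-23a-3p, miR-24-3p and miR-27a-3p in colour (error bars, spot SE, mostly smaller than the points), the median of all miRNAs as a black line and 2-fold as dashed lines. MiR-23a-3p and miR-24-3p lie within 0.08 of the median line in each row, and miR-27a-3p lies at −0.42 and −0.46 from it in the rows that hold the exoRNeasy array; the position against 0 changes with the scaling.

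Of the 67 miRNAs detected on every array, miR-23a-3p stayed nearest to the median of all miRNAs. Its largest distance from that median over the 3 comparisons was 0.04 log2 units, ahead of miR-130a-3p at 0.08 and of miR-24-3p at 0.08, and miR-27a-3p took place 25 with 0.46. The ranking is a description made after the values were seen, and miR-23a-3p is itself the median in 1 of the 3 comparisons. The place depends on the probe and on the background. The other, dimmer miR-23a-3p probe had a largest distance of 0.21, which put it at place 10. With the local background modelled by normexp, miR-23a-3p took place 43, and with no background correction place 31.

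The products of the clusters were compared with each other by the change, between 2 arrays, of the log2 difference between 2 miRNAs. In this difference of differences the scale of each array and the strength of each probe cancel. Since the b paralogs were not detected on 2 arrays, miR-23 and miR-27 stand for the a paralogs.

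MiR-24-3p is given first. The log2 difference between the miR-24-3p and miR-23a-3p probes was −1.47 with exoRNeasy, −1.56 with miRNeasy advanced and −1.48 with mirVana PARIS. It shifted by 0.09 ± 0.04 (spot SE) for exoRNeasy minus miRNeasy advanced, by 0.01 ± 0.03 for exoRNeasy minus mirVana PARIS and by −0.08 ± 0.04 for miRNeasy advanced minus mirVana PARIS. None of these shifts of the brighter probes exceeded 3 spot errors. Over the 4 probe pairs they ran from 0.09 to 0.25, from −0.02 to 0.18 and from −0.19 to 0.01, and 2, 2 and 1 of the 4 exceeded 3 spot errors. Quantile normalisation gave 0.36 for exoRNeasy minus mirVana PARIS and 0.29 for miRNeasy advanced minus mirVana PARIS.

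MiR-27a-3p stood lower against miR-23a-3p on the exoRNeasy array than on either other array. The log2 difference between their probes was −1.81 with exoRNeasy, −1.41 with miRNeasy advanced and −1.40 with mirVana PARIS. The exoRNeasy array differed by −0.40 ± 0.04 (spot SE) from the miRNeasy advanced array, a 1.32-fold change, and by −0.41 ± 0.04, or 1.33-fold, from the mirVana PARIS array. For miRNeasy advanced minus mirVana PARIS the shift was −0.01 ± 0.04. That last value depends on the processing, with 0.29 under quantile normalisation, 0.21 under normexp, 0.18 without background correction and −0.30 with paralog means. Under quantile normalisation the shift for exoRNeasy minus mirVana PARIS was −0.082, so that the miRNeasy advanced array was then the one that differed from both others, and under normexp it was −0.23.

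Against miR-24-3p the picture was the same, with the miR-27a-3p difference shifted by −0.49 ± 0.04 for exoRNeasy minus miRNeasy advanced, −0.42 ± 0.04 for exoRNeasy minus mirVana PARIS and 0.07 ± 0.04 for miRNeasy advanced minus mirVana PARIS. The second probes gave the same direction for the exoRNeasy array. Over the 4 pairs of a miR-27a-3p with a miR-23a-3p probe, the shift ran from −0.42 to −0.32 against miRNeasy advanced and from −0.65 to −0.24 against mirVana PARIS, and from −0.22 to 0.08 between miRNeasy advanced and mirVana PARIS, where 1 of the 4 exceeded 3 spot errors. Probes of 1 miRNA share the RNA and the array, so their accord does not speak for the extraction.

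The size of the miR-27a-3p shift was ordinary for these arrays. Over all 2211 pairs among the 67 shared miRNAs the median size of such a shift was 0.47 for exoRNeasy minus miRNeasy advanced and 0.62 for exoRNeasy minus mirVana PARIS. Larger shifts than that of miR-27a-3p against miR-23a-3p occurred in 56.4% and 64.7% of the pairs. Shifts larger than that of miR-24-3p against miR-23a-3p occurred in 88.5% and 99.1%.

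**Figure D3:**
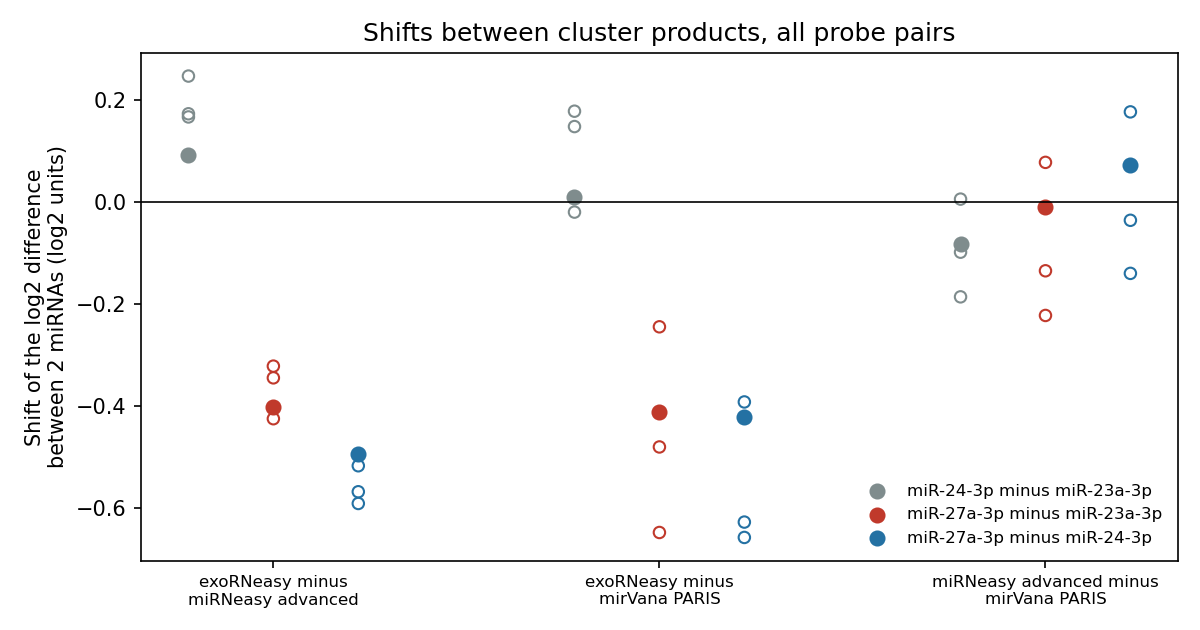
Shift between 2 arrays of the log2 difference between 2 cluster products, in log2 units, for the brighter probes (filled points) and the other probe pairs (open points). The miR-27a-3p points lie below 0 in both comparisons that hold the exoRNeasy array for every probe pair, and on both sides of 0 in the comparison without it.

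The 3 miRNAs nearest to each member in pattern were found by the root mean square difference of scaled log2 levels over the 3 arrays, each miRNA centred on its own mean, among the 66 other miRNAs detected on every array. For miR-23a-3p they were miR-7047-5p at 0.025, miR-130a-3p at 0.027 and miR-24-3p at 0.041. For miR-24-3p they were miR-7047-5p at 0.036, miR-23a-3p at 0.041 and miR-140-3p at 0.044. For miR-27a-3p they were miR-497a-5p at 0.097, miR-146a-5p at 0.11 and miR-29b-3p at 0.12, while miR-23a-3p came at place 14 with 0.19 and miR-24-3p at place 18 with 0.22. With 3 arrays a pattern has few ways to differ, and nearness in it says nothing else about these miRNAs.

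The b paralogs, encoded in the Aopep gene together with a copy of miR-24-3p, were dim throughout. MiR-23b-3p had a signal of 22.8 ± 3.02 (SD, n = 14 spots) with exoRNeasy, 11.8 ± 3.43 (SD, n = 15 spots) with miRNeasy advanced and 28.1 ± 1.47 (SD, n = 12 spots) with mirVana PARIS. Its spots were well above background in 6 of 14, 7 of 15 and 12 of 12 cases. The exoRNeasy and mirVana PARIS spots overlapped, and the miRNeasy advanced spots lay below all others.

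MiR-27b-3p, with the miR-27a-3p seed, had signals of 19.1 ± 4.38 (SD, n = 15 spots), 11.0 ± 1.72 (SD, n = 13 spots) and 41.0 ± 3.57 (SD, n = 14 spots) in the same order of arrays. Well above background were 3 of 15, 3 of 13 and 14 of 14 spots, and the mirVana PARIS spots lay above all others. At 46.7% of spots, miR-23b-3p on the miRNeasy advanced array came nearest to the threshold of 50% from below, while every detected member had 100% of its spots above background.

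Not being detected under this rule is not the same as being at the level of empty probes. Negative-control spots had a mean of 4.88 ± 2.65 (SD, n = 990 spots) on the miRNeasy advanced array, and 4 of the 990 were brighter than the mean of miR-23b-3p and 8 brighter than that of miR-27b-3p. On the exoRNeasy array, with a negative-control mean of 5.26 ± 3.53 (SD, n = 984 spots), 0 of 984 were brighter than either mean. The dimmer probes of the b paralogs had 0 spots well above background on any array, with mean signals of at most 5.83 for miR-23b-3p and 4.61 for miR-27b-3p.

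For the b paralogs only a bound could be given where they were not detected, the mirVana PARIS level set against the dim array's lowest detected signal or, where higher, the level measured there. Before scaling the bound for miR-27b-3p was 3.36-fold higher on the mirVana PARIS than on the miRNeasy advanced array and 1.90-fold higher than on the exoRNeasy array. For miR-23b-3p it was 2.31-fold higher than on the miRNeasy advanced array. On the exoRNeasy array the measured miR-23b-3p level was above the lowest detected signal. Its value of 1.24-fold is thus the plain ratio of measured levels with overlapping spots, and no bound. An undetected probe can therefore exceed the lowest detected signal, so the other bounds are not strict limits. After scaling all 4 values fell under 1-fold, so no direction could be given. Because of this the change of miR-23b-3p against miR-23a-3p, and of miR-27b-3p against miR-27a-3p, could be measured in 0 of the 6 combinations of pair and comparison. The labelling spike-in had mean log2 signals of 10.34, 10.48 and 10.60 on the exoRNeasy, miRNeasy advanced and mirVana PARIS arrays. With spike-in scaling the median log2 ratio of all miRNAs was −0.39 for exoRNeasy minus mirVana PARIS and −1.49 for miRNeasy advanced minus mirVana PARIS. Whether the labelling of the b paralogs followed that of the spike-in was not tested. The same mass of RNA was labelled from each extract, so these signals do not measure the yield of an extract.

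The opposite arms of the hairpins were not detected. The list held 9 miRNAs with 24 probes: miR-23a-5p, miR-23b-5p, miR-24-1-5p, miR-24-2-5p, miR-27a-5p, miR-27b-5p, and miR-3074-5p, miR-3074-1-3p and miR-3074-2-3p, which come from the strand opposite miR-24. On the exoRNeasy, miRNeasy advanced and mirVana PARIS arrays 0 of 255, 0 of 263 and 0 of 256 spots were well above background. Every mean of these probes was below 0 after background subtraction, the highest at −0.85, −0.35 and −0.19. MiR-128-3p is shown because its first 7 bases are those of the miR-27 seed, 1 base nearer to the 5′ end (its own seed in capitals).
miR-128-3p: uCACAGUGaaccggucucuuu
It had 14 of 14 spots well above background with mirVana PARIS, at 16.9 ± 1.86 (SD, n = 14 spots), and 0 spots on the others.

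MiR-23a-3p was also read as the haemolysis partner of red cell miRNAs. Published cut-offs for this pair are set in PCR cycles and do not carry over to array signals, so only the change between arrays is given. MiR-451a, which is made in red cell precursors, had a signal of 6245 ± 227 (SD, n = 14 spots) with exoRNeasy, 4965 ± 274 (SD, n = 15 spots) with miRNeasy advanced and 18052 ± 874 (SD, n = 15 spots) with mirVana PARIS. The log2 difference between the miR-451a and miR-23a-3p probes was 3.56, 4.16 and 4.40 in that order, lowest on the exoRNeasy array and highest on the mirVana PARIS array.

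The miR-451a difference to miR-23a-3p shifted by −0.61 ± 0.04 (spot SE) for exoRNeasy minus miRNeasy advanced, by −0.84 ± 0.03 for exoRNeasy minus mirVana PARIS and by −0.24 ± 0.04 for miRNeasy advanced minus mirVana PARIS. As folds these are 1.52, 1.80 and 1.18. Each exceeded 3 spot errors, and over the 4 probe pairs the shifts ran from −0.61 to −0.53, from −1.005 to −0.677 and from −0.40 to −0.15. Larger shifts occurred in 39.4%, 37.1% and 80.9% of the 2211 pairs of shared miRNAs, so their size was ordinary for these arrays. Quantile normalisation, which sets the brightest probes of all arrays equal, changed the shifts to 0, 0.11 and 0.11.

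Other red cell miRNAs gave other readings against the same partner. For exoRNeasy minus miRNeasy advanced, miR-16-5p shifted by 0.04 ± 0.03 and miR-486a-5p by 0.14 ± 0.05 against miR-23a-3p, whereas miR-144-3p, from the transcript that also holds miR-451a, shifted by −0.96 ± 0.05. For exoRNeasy minus mirVana PARIS all 4 shifted below 0, with −0.86 ± 0.03 for miR-16-5p, −0.62 ± 0.04 for miR-486a-5p and −1.89 ± 0.05 for miR-144-3p. For miRNeasy advanced minus mirVana PARIS the shifts were −0.91 ± 0.03 for miR-16-5p, −0.76 ± 0.05 for miR-486a-5p and −0.92 ± 0.05 for miR-144-3p, each further from 0 than that of miR-451a. The order of the kits by this measure therefore changed with the red cell miRNA: the miR-451a and miR-144-3p differences were lowest on the exoRNeasy array, and the miR-16-5p and miR-486a-5p differences on the miRNeasy advanced array, the latter by less than 3 spot errors from the exoRNeasy array for both. Over the 4 probe pairs, the shift for exoRNeasy minus miRNeasy advanced ran from −0.03 to 0.12 for miR-16-5p, so its lowest array changed with the probe. For miR-486a-5p it ran from 0.14 to 0.22. Among the red cell miRNAs, alternative processing was run for miR-451a only.

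**Figure D4:**
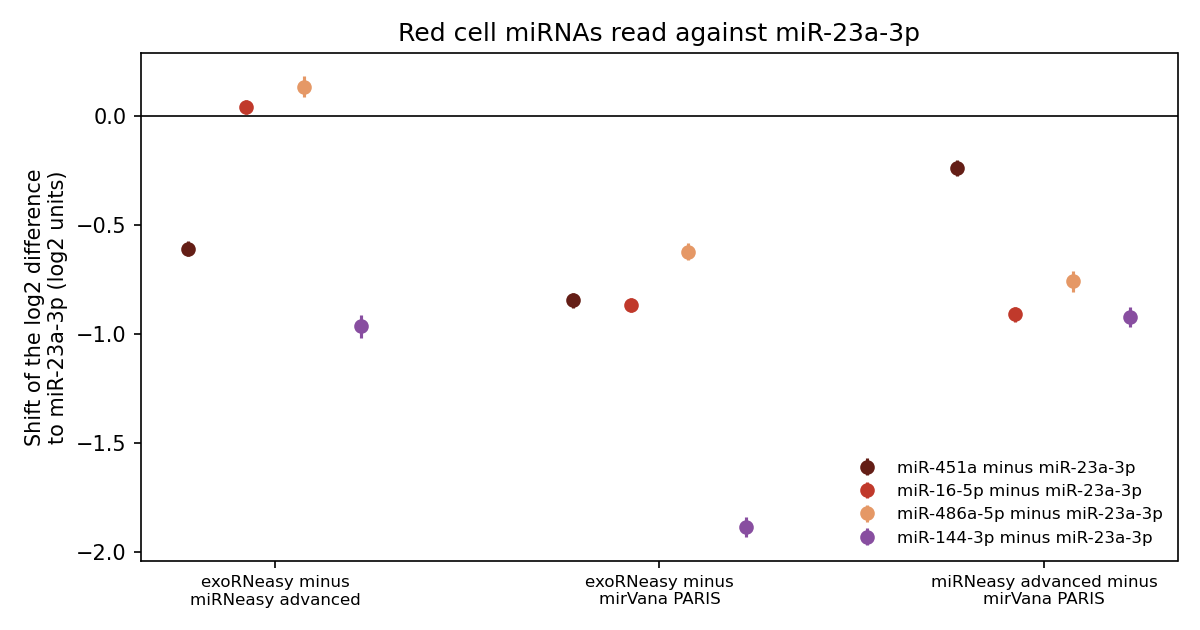
Shift between 2 arrays of the log2 difference of miR-451a, miR-16-5p, miR-486a-5p and miR-144-3p to miR-23a-3p, in log2 units, with error bars of 1 spot SE. All 4 lie below 0 in the comparisons with mirVana PARIS, while for exoRNeasy minus miRNeasy advanced miR-451a and miR-144-3p lie at −0.61 and −0.96 and miR-16-5p and miR-486a-5p at 0.04 and 0.14.

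Before scaling, the probe signals of the 4 red cell miRNAs summed to 6782 on the exoRNeasy, 5251 on the miRNeasy advanced and 19715 on the mirVana PARIS array. Most of each sum was the miR-451a probe, and all 4 were detected on each array. Because probes bind with different strength, the sum does not measure abundance. All miRNAs together had the same order of arrays before scaling. Whether red cell lysis, the serum drawn or the extraction moved these differences was not tested, and with 1 array per kit the kit and the serum sample cannot be told apart.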

How the data were processed

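The authors deposited 1-colour scanner files that hold spot intensity, background-subtracted and not normalised between arrays, per the file headers. Feature Extraction was version 11.5.1.1, as the file headers state, and 11.5 per the submitters' processing notes. A deposited table of values repeated these intensity values to within 0.50% of each array's own, with medians of −2.77 (exoRNeasy), −1.51 (miRNeasy advanced) and −1.44 (mirVana PARIS), so its scale is linear, not centred, and it has no direction to settle. Control and outlier spots were left out, signals below 1 set to 1, and log2 signals averaged over a probe's spots; none of the brighter member probes had a spot at 1. A miRNA was read from the probe that the most arrays detected, with ties going to the brighter probe. Each of the 3 arrays was scaled as described. The number of arrays limits the precision. Alternatives covered scaling, background, spots and probes. The members, lists and naming rule were chosen with earlier results of these data known. Named are the members, their other arms, 4 red cell miRNAs, miR-128-3p, 3 nearest miRNAs per member and, after values were seen, those nearest the median. The design took the mean of a and b paralogs as a product, but b was not detected on 2 arrays, so the a paralog was used; means that include the dim b levels are an alternative added after seeing the data. The 2-fold step was tested only on simulated bright spots with planted changes beyond 2-fold. Detection, the setting of low signals to 1 and the scaling were not tried there. Tools were Python 3.11.15, numpy 2.4.6, pandas 2.3.3 and limma 3.58.1.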

Additional observations from a re-analysis of the deposited data

How the results depend on the processing

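No paired analysis was possible because each kit has 1 array and no fit was made. With the scanner software's gene flag 5 members were detected on the exoRNeasy and 5 on the miRNeasy advanced array, and b against a could be set in 6 of 6 combinations (added after seeing the data). The brighter probe of miR-23b-3p then shifted against miR-23a-3p by 0.06, 0.37 and 0.31 (spot SD 0.48, 0.22 and 0.45), and that of miR-27b-3p against miR-27a-3p by 0.23, −0.04 and −0.27 (spot SD 0.45, 0.40 and 0.29), where total gene signals gave 0.03, 0.41 and 0.39 and 0.26, 0.05 and −0.21, for exoRNeasy minus miRNeasy advanced, exoRNeasy minus mirVana PARIS and miRNeasy advanced minus mirVana PARIS; this order holds throughout. A spot SD is larger than the spot SE given with the other shifts. For miR-27a-3p against miR-23a-3p, exoRNeasy minus miRNeasy advanced, the SD was 0.15 and the SE 0.04. With all probes required, 3 members were detected on the mirVana PARIS array. The share of all miRNAs passing the gene flag or the all-probes rule is not given. These counts therefore show nothing particular to the members. At least 2-fold apart were 1, 1 and 3 members without scaling, 2, 0 and 3 after scaling to the labelling spike-in, and 0, 3 and 3 when all probes entered the 75th percentile. The member median minus that of all miRNAs became 0.20, −0.33 and −0.37 with normexp, 0.19, −0.35 and −0.36 without background correction, and 0.17 in the last comparison with quantile normalisation. For miR-24-3p against miR-23a-3p normexp gave −0.087 in the first and 0.18 in the last comparison, no background correction 0.14 in the last, quantile normalisation 0.36 and 0.29 in the last 2, and paralog means, added after seeing the data, −0.18 in the second. For miR-27a-3p against miR-23a-3p quantile normalisation gave −0.082 and 0.29 in the last 2 comparisons, normexp −0.23 and 0.21, no background correction −0.24 and 0.18, and paralog means −0.62 and −0.30. MiR-451a against miR-23a-3p shifted by 0, 0.11 and 0.11 with quantile normalisation and by −0.41 in the last comparison with normexp. MiR-23a-3p took place 10 with its other probe, 3 with quantile normalisation, 43 with normexp, 31 without background correction and 2 with outlier spots kept, all added after seeing the data. Except for the effect of scaling and of quantile normalisation on bright probes, which follow from their construction, the cause was not tested. The shifts of miR-27a-3p against miR-23a-3p and miR-24-3p stayed below 0 in both exoRNeasy comparisons under all 9 alternatives run. Scaling before low signals were set to 1, and the deposited table of the same intensities, could hardly move a value. Both are among these alternatives and in the counts that follow, so those counts overstate how far the values were tried. Of the 81 values for shifts between products, 67 moved by less than the spot SD, as did 20 of 24 for miR-451a, while 22, 15 and 16 of 36 values of the ratios of miR-23a-3p, miR-24-3p and miR-27a-3p, and 7 of 24 of the member median, moved by more. Signal limits the b paralogs, at 11.0 to 22.8 on 2 arrays.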
